A study of Mus musculus with 1989 samples.

Results

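The proteasome genes described here are the 49 genes of the scRNA-seq table whose symbols start with Psma, Psmb, Psmc, Psmd, Psme, Psmf or Psmg, of 8846 genes in all. The rule uses the symbol and no measured value. By role they comprised 14 genes of the constitutive 20S core, 3 of the immunoproteasome, 17 of the 19S regulatory particle, 2 of the PA28 activator, 7 of assembly chaperones, 2 of other activators, the thymoproteasome gene Psmb11, the inhibitor gene Psmf1, and 2 that the symbol rule takes in without being subunits. The study measured single thymocytes of the mouse thymus. All samples were labelled as male thymus at 7 weeks of age, and the mice were C57BL/6, with no transgene or treatment named. One droplet-based scRNA-seq library held 1993 cells. In scATAC-seq, in which each cell is a sample of its own, the cells used here had been sorted before capture into DN (182 cells), DP (125), CD4 (119) and CD8 (116) groups. The labels tie no cell to an animal. The scRNA-seq library and each sort were therefore taken as a single sample each, without replicates, and stages and sorts were compared without a test.

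The proteasome is the protease complex that degrades proteins tagged with ubiquitin. Its barrel, the 20S core, is built of rings of alpha subunits, which form the gate, and rings of beta subunits, which hold the protease sites. The 19S regulatory particle caps the barrel, binds ubiquitin chains, and unfolds and feeds in the substrate with a ring of ATPases. In immune cells the catalytic subunits encoded by Psmb5, Psmb6 and Psmb7 can be replaced by those encoded by Psmb8, Psmb9 and Psmb10, which makes the immunoproteasome, and the PA28 ring of Psme1 and Psme2 products can dock in place of the cap. These parts are known from interferon responses and from the making of peptides for MHC class I molecules. In the thymus, a further catalytic subunit, the product of Psmb11, is known from cortical epithelial cells, where it serves the positive selection of CD8 thymocytes.

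The promoters of 5 genes to which the results return are shown first, as examples of constitutive and inducible catalytic genes and of the activator. Each is the window from 250 bases before to 50 bases after the transcription start given by RefSeq for GRCm38.p6, written 5′ to 3′ on the strand of the gene. Psmb5 lies at chr14:54617946-54618245 (minus strand), Psmb6 at chr11:70525107-70525406 (plus strand), Psmb8 at chr17:34197945-34198244 (plus strand), Psmb9 at chr17:34187281-34187580 (minus strand) and Psme1 at chr14:55578244-55578543 (plus strand). Capitals mark a match to any of 6 searched motifs.
Psmb5: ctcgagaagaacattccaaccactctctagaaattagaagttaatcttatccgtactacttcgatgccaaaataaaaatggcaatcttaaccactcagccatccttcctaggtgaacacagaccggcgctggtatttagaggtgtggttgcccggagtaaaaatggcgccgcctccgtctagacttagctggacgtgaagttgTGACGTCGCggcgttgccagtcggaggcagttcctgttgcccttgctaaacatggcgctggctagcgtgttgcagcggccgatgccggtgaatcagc
Psmb6: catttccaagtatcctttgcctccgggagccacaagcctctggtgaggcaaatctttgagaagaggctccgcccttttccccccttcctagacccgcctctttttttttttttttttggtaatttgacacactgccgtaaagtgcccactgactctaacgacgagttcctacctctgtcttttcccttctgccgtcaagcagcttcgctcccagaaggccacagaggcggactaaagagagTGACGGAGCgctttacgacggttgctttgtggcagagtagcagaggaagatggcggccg
Psmb8: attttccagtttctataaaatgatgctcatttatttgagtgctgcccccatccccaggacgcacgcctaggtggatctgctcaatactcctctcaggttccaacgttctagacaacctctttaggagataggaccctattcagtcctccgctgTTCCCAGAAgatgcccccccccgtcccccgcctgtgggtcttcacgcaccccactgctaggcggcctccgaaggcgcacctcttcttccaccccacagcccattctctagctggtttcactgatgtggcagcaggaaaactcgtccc
Psmb9: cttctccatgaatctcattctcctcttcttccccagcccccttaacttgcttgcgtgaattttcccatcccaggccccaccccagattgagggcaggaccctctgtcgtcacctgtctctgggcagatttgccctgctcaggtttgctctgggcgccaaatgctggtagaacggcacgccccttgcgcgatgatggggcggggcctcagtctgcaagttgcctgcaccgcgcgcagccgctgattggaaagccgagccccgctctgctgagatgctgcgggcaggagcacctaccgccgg
Psme1: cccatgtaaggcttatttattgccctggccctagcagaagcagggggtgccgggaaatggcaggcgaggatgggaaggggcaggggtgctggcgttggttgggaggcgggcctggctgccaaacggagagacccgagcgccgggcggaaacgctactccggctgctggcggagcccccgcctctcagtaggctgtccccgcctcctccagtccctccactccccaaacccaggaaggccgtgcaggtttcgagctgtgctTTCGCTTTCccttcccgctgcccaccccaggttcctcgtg
The capitals in Psmb5 and Psmb6 match TGACNNNGC, the letters of the antioxidant response element that Nfe2l1, an activator of proteasome genes, is known to bind. With the start base counted as 0, they lie at bases -47 to -39 in Psmb5 and -9 to -1 in Psmb6. The capitals in Psmb8 match TTCNNNGAA, a Stat motif, on both strands at bases -97 to -89. Those in Psme1 match GAAANNGAA, an interferon regulatory factor motif, on the opposite strand at bases 10 to 18. The window of Psmb9 held no match to the 6 motifs. Neither did the windows of Psmb10 and Psme2, inducible genes that are not shown.

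Windows were found for 42 of the 49 genes, 45 windows in all. Psmb1, Psmb2, Psmb7, Psmc3, Psmd3, Psmd7 and Psmg2 had no entry. The Ets motif CCGGAAGT was found on either strand in 9 of 42 genes (21.4%), against 4.31% of 27025 genes with such windows. Its 9 genes were Psma6, Psmc1, Psmc2, Psmd6, Psmd12, Psmd13, Psme3, Psme4 and Psmg3, with 5 of them in the 19S regulatory particle. The nuclear respiratory factor 1 motif GCGCNTGCG was found in 7 of 42 (16.7%, against 7.12%), of which Psma2, Psma3 and Psma4 encode alpha subunits. GAAANNGAA was found in 7 of 42 (16.7%, against 9.76%), TGACNNNGC in 6 of 42 (14.3%, against 14%), TTCNNNGAA in 3 of 42 (7.14%, against 9.55%) and the NF-kappaB motif GGGNNTTCC in 1 of 42 (2.38%, against 6.58%). The 7 genes with GAAANNGAA were Psmb3, Psmb4, Psmc2, Psmd4, Psmd9, Psme1 and Psmg4, with none in the immunoproteasome. The median GC content was 57.3% over the 45 windows and 52.7% over all windows, and its part in these shares was not tested. A match is a match of letters in the window, and no match bears only on these letters in these 300 bases.

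To compare levels between cells of unequal depth, a stand-in for a molecule count was needed, because the deposited values are log2 values after quantile normalization. That normalization does not change which gene of a cell is higher, so distinct values were numbered upward from the lowest within every cell, and the number a gene received is called its steps. Of the member values above 0, 86.0% were at most 3 steps and the highest was 29, and steps understate genes with many molecules. To equalise depth, 1300 steps were drawn at random from every cell. A level below is the number of steps of a gene per 10000 thinned steps of a stage. Intervals are exact 95% Poisson intervals for levels, exact conditional intervals for ratios and exact binomial (Clopper-Pearson) intervals for shares, and all cover counting error only. The 3′ tag assay reads each transcript near its end, so levels carry no length term.

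Cells were grouped by clustering without the proteasome genes and without the pathway genes described below, and clusters were named from marker genes. The stages follow thymocyte development from DN-like cells (78 cells, median 3633 steps before thinning) through cycling immature single-positive ISP-like cells (163, 10070) and DP blast DPbla-like cells (343, 5259) to rearranging DPre-like cells (377, 1905), DPsel-like cells under selection (336, 1979.5), CD4sp-like cells (151, 2176) and CD8sp-like cells (145, 2448). NCL-like cells (30), the nonconventional lymphocytes, and antigen-presenting APC-like cells (35) stood apart. SP-like denotes the CD4sp-like and CD8sp-like cells together (296). Clusters 7, 8 and 13, 3 of 17, with 145, 121 and 69 cells, stayed unnamed because no class led by the margin required. The clusters were named from these same marker lists, so the following levels do not test the names. The summed level of the marker list of a class was highest in the cells named for it for 8 of the 9 classes. The exception was the CD8sp list, at 50.0 in CD8sp-like, 72.0 in DPre-like and 61.3 in cluster 8 cells, and the DPbla list was nearly as high in DPre-like (82.1) as in DPbla-like cells (90.8). The summed level of 6 antigen-presenting cell genes was 274.5 in APC-like cells and 3.75 to 7.88 in the other thymocyte stages, from DN-like to SP-like.

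The 20S core was most abundant in the ISP-like cells, whereas the immunoproteasome and PA28 were most abundant in the SP-like and APC-like cells. The immunoproteasome was lowest in DPre-like cells and PA28 in DPbla-like cells. The summed level of the 14 constitutive core genes was 45.2 (41.1 to 49.5) in DN-like cells, 68.9 (65.4 to 72.5) in ISP-like cells, 58.4 (56.2 to 60.7) in DPbla-like cells, 48.0 (46.1 to 49.9) in DPre-like cells, 50.8 (48.7 to 52.9) in DPsel-like cells, 47.1 (44.1 to 50.2) in CD4sp-like cells, 53.1 (49.9 to 56.5) in CD8sp-like cells, 42.6 (36.3 to 49.6) in NCL-like and 49.5 (43.2 to 56.4) in APC-like cells. The 3 immunoproteasome genes summed to 17.4 (14.9 to 20.1), 15.0 (13.4 to 16.8), 13.6 (12.5 to 14.7), 11.1 (10.2 to 12.1), 11.8 (10.8 to 12.8), 19.0 (17.1 to 21.0), 18.4 (16.5 to 20.5), 14.9 (11.3 to 19.2) and 20.9 (16.9 to 25.5) in the same order. For the core, the ISP-like interval lies above those of the other named groups, and the DPbla-like interval lies above that of the DPre-like cells and meets that of the CD8sp-like cells. For the immunoproteasome the DPre-like and DPsel-like intervals lie below those of the DN-like and SP-like cells. Among the SP-like classes, DN-like and APC-like cells, the immunoproteasome intervals overlap.

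**Figure D1:**
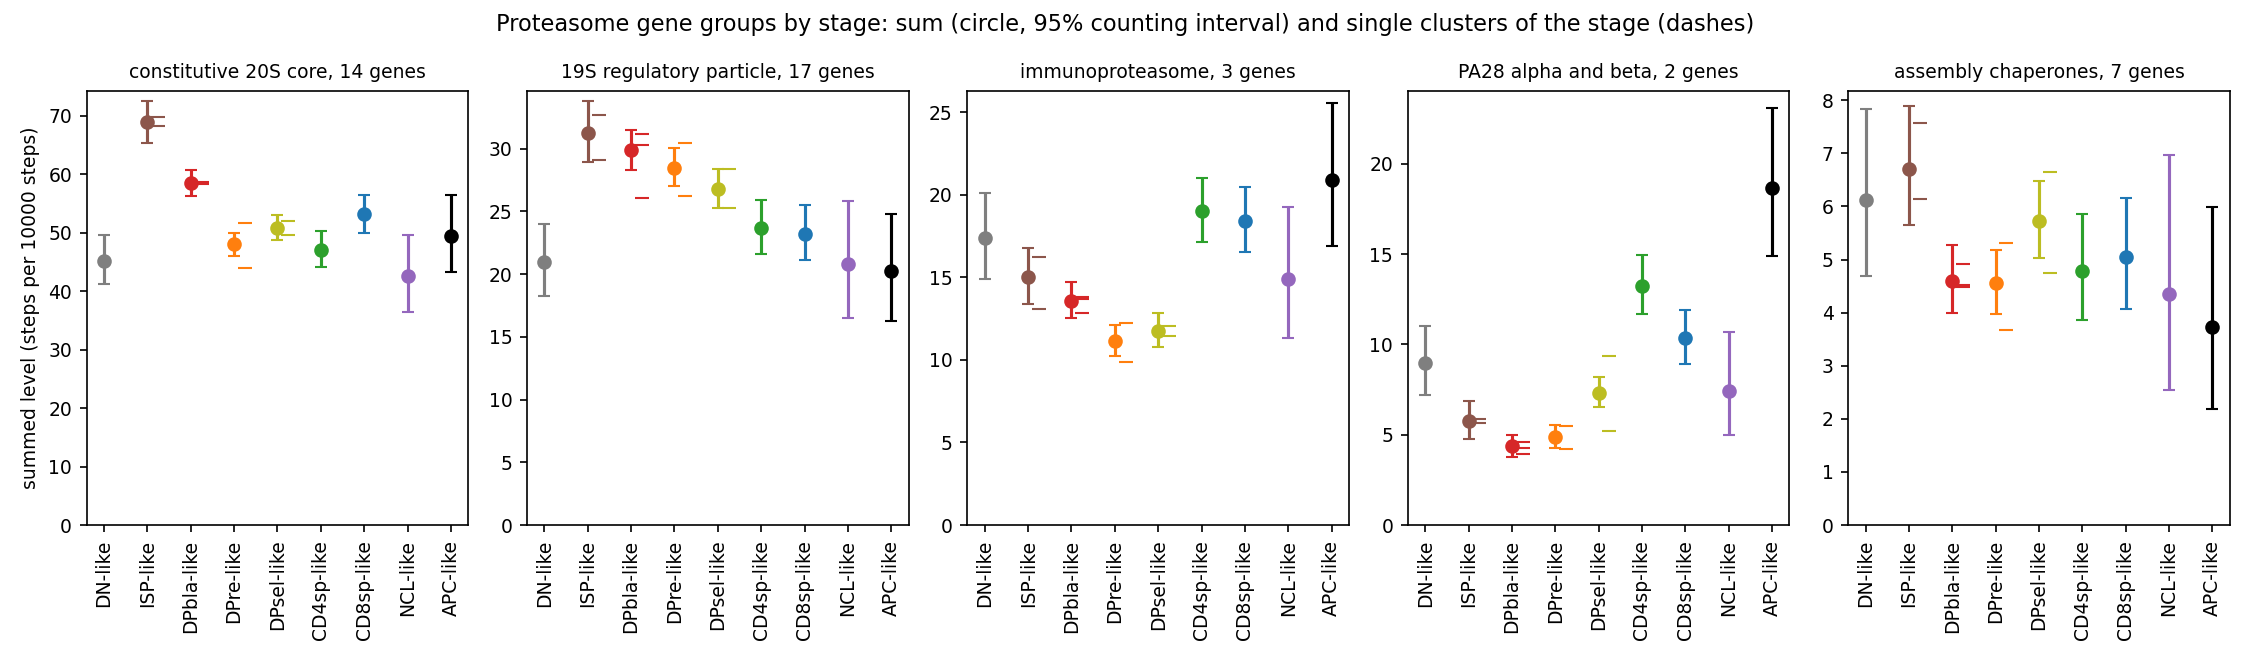
Summed level of each proteasome gene group (y axis, steps per 10000 thinned steps) in 9 named groups of cells (x axis), with circles for the level, bars for exact 95% Poisson intervals that cover counting error only, and dashes for single clusters of a stage with more than 1 cluster. The 20S core is highest, at 68.9, in ISP-like cells, and PA28 runs from 4.35 in DPbla-like to 18.7 in APC-like cells.

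The 19S regulatory particle and PA28 moved in opposite directions between the DP stages and the SP-like cells. The 17 genes of the 19S regulatory particle summed to 21.0 in DN-like cells, 31.3 in ISP-like cells, 29.9 in DPbla-like cells, 28.5 in DPre-like cells, 26.8 in DPsel-like cells, 23.7 in CD4sp-like cells, 23.2 in CD8sp-like cells, 20.8 in NCL-like and 20.2 in APC-like cells. Psme1 and Psme2, the PA28 genes, summed to 8.97, 5.76, 4.35, 4.88, 7.33, 13.2, 10.3, 7.44 and 18.7 in that order. The 7 assembly chaperones, which build the ring and the base before the complex is complete, stayed between 3.74 in APC-like and 6.70 in ISP-like cells, with the ISP-like interval (5.64 to 7.90) above that of the DPre-like cells (3.97 to 5.19). All 49 genes together took 99.3 of 10000 steps in DPre-like and 130.6 in ISP-like cells.

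Levels of the groups also varied between clusters of a single stage. In the DPre-like cells, the core was 51.5 in cluster 0 and 43.9 in cluster 1. The DPsel-like clusters differed most in PA28, with 5.22 (4.30 to 6.28) in cluster 4 and 9.36 (8.13 to 10.7) in cluster 3. The ISP-like clusters 9 and 14 and the DPbla-like clusters 2, 10 and 12 spanned narrower ranges of the core, with 58.4 to 58.6 in the DPbla-like clusters. Among the unnamed clusters, 7 and 8, in which Mki67 was above 0 in 66.9% and 43.8% of cells, had core levels of 65.0 and 63.8. Cluster 13, led by Tmsb10, Ifi27l2a and Cd52, had 17.4 for the immunoproteasome and 13.5 for PA28, within the intervals of the CD4sp-like cells.

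Cell cycle genes and depth were also highest in the ISP-like and DPbla-like cells, the named stages with the most core. Between these stages, depth had the same order as the core, and the cell cycle genes had the other order. The summed level of 6 S phase genes was 23.6 in ISP-like cells, 28.8 in DPbla-like cells, 3.35 in DPre-like and 4.6 in SP-like cells, and that of 6 G2/M genes was 24.5, 51.2, 3.51 and 5.35. ISP-like cells had less of both than DPbla-like cells, and more of the core. The median depth before thinning was also highest in the ISP-like cells, while DN-like cells, at 3633 steps, were deeper than DPre-like cells, at 1905, and had a core of 45.2 against 48.0. Their part in the core levels was not tested.

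The next comparisons set each stage against the DPre-like cells, and all 4 share those cells. The ratio of the core was 1.44 (1.34 to 1.53) in ISP-like over DPre-like cells and 1.22 (1.15 to 1.29) in DPbla-like over DPre-like cells, and 1.06 (1.00 to 1.12) and 1.04 (0.98 to 1.11) for the DPsel-like and SP-like cells. When every cluster was named, the SP-like ratio of the core was 0.97. For the 19S regulatory particle the ISP-like ratio was 1.10 (1.00 to 1.21) and the SP-like ratio was 0.82 (0.76 to 0.90), with 1.05 (0.97 to 1.13) and 0.94 (0.87 to 1.02) in the DPbla-like and DPsel-like cells. The immunoproteasome was 1.35 (1.17 to 1.55) times as high in ISP-like and 1.68 (1.5 to 1.88) times as high in SP-like as in DPre-like cells, with 1.22 (1.08 to 1.37) and 1.06 (0.93 to 1.19) in the DPbla-like and DPsel-like cells. PA28 had the widest range of these groups, with ratios of 0.89 (0.73 to 1.08) in DPbla-like cells, 1.5 (1.27 to 1.78) in DPsel-like and 2.42 (2.07 to 2.85) in SP-like cells. Its ISP-like ratio of 1.18 (0.94 to 1.47) was 1.40 without thinning and 1.66 in another random draw, so the draw moved this value by more than its interval.

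Genes were called higher or lower at a ratio of at least 1.5 or at most its inverse, among the 48 members and 5429 genes in all with a level of at least 0.3 over all cells. Psmb11, at 0.14, was the member left out. In ISP-like over DPre-like cells 16 of 48 members were higher and 2 lower, where 23.2% and 35.2% of all genes were. The median ratio was 1.31 over the members and 0.88 over all genes tested. In DPbla-like over DPre-like cells 8 members were higher and 3 lower (16.6% and 31.4% of all genes), and in DPsel-like over DPre-like cells 7 were higher and 1 lower (16.8% and 16.2%). In SP-like over DPre-like cells 10 were higher and 5 lower (17.6% and 21.4%), and in CD8sp-like over CD4sp-like cells 6 were higher and 4 lower (16.8% and 15.5%). Against these backgrounds, few members were lower in the ISP-like, DPbla-like and DPsel-like contrasts. The background genes were not matched to the members for level, and the part of level in these shares was not tested. The share higher was above the background in the ISP-like contrast at this fold but not at a fold of 2, where 7 of 48 members and 14.3% of all genes were higher. The counts higher in the DPbla-like, DPsel-like, SP-like and CD8sp-like contrasts were close to the background.

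**Figure D2:**
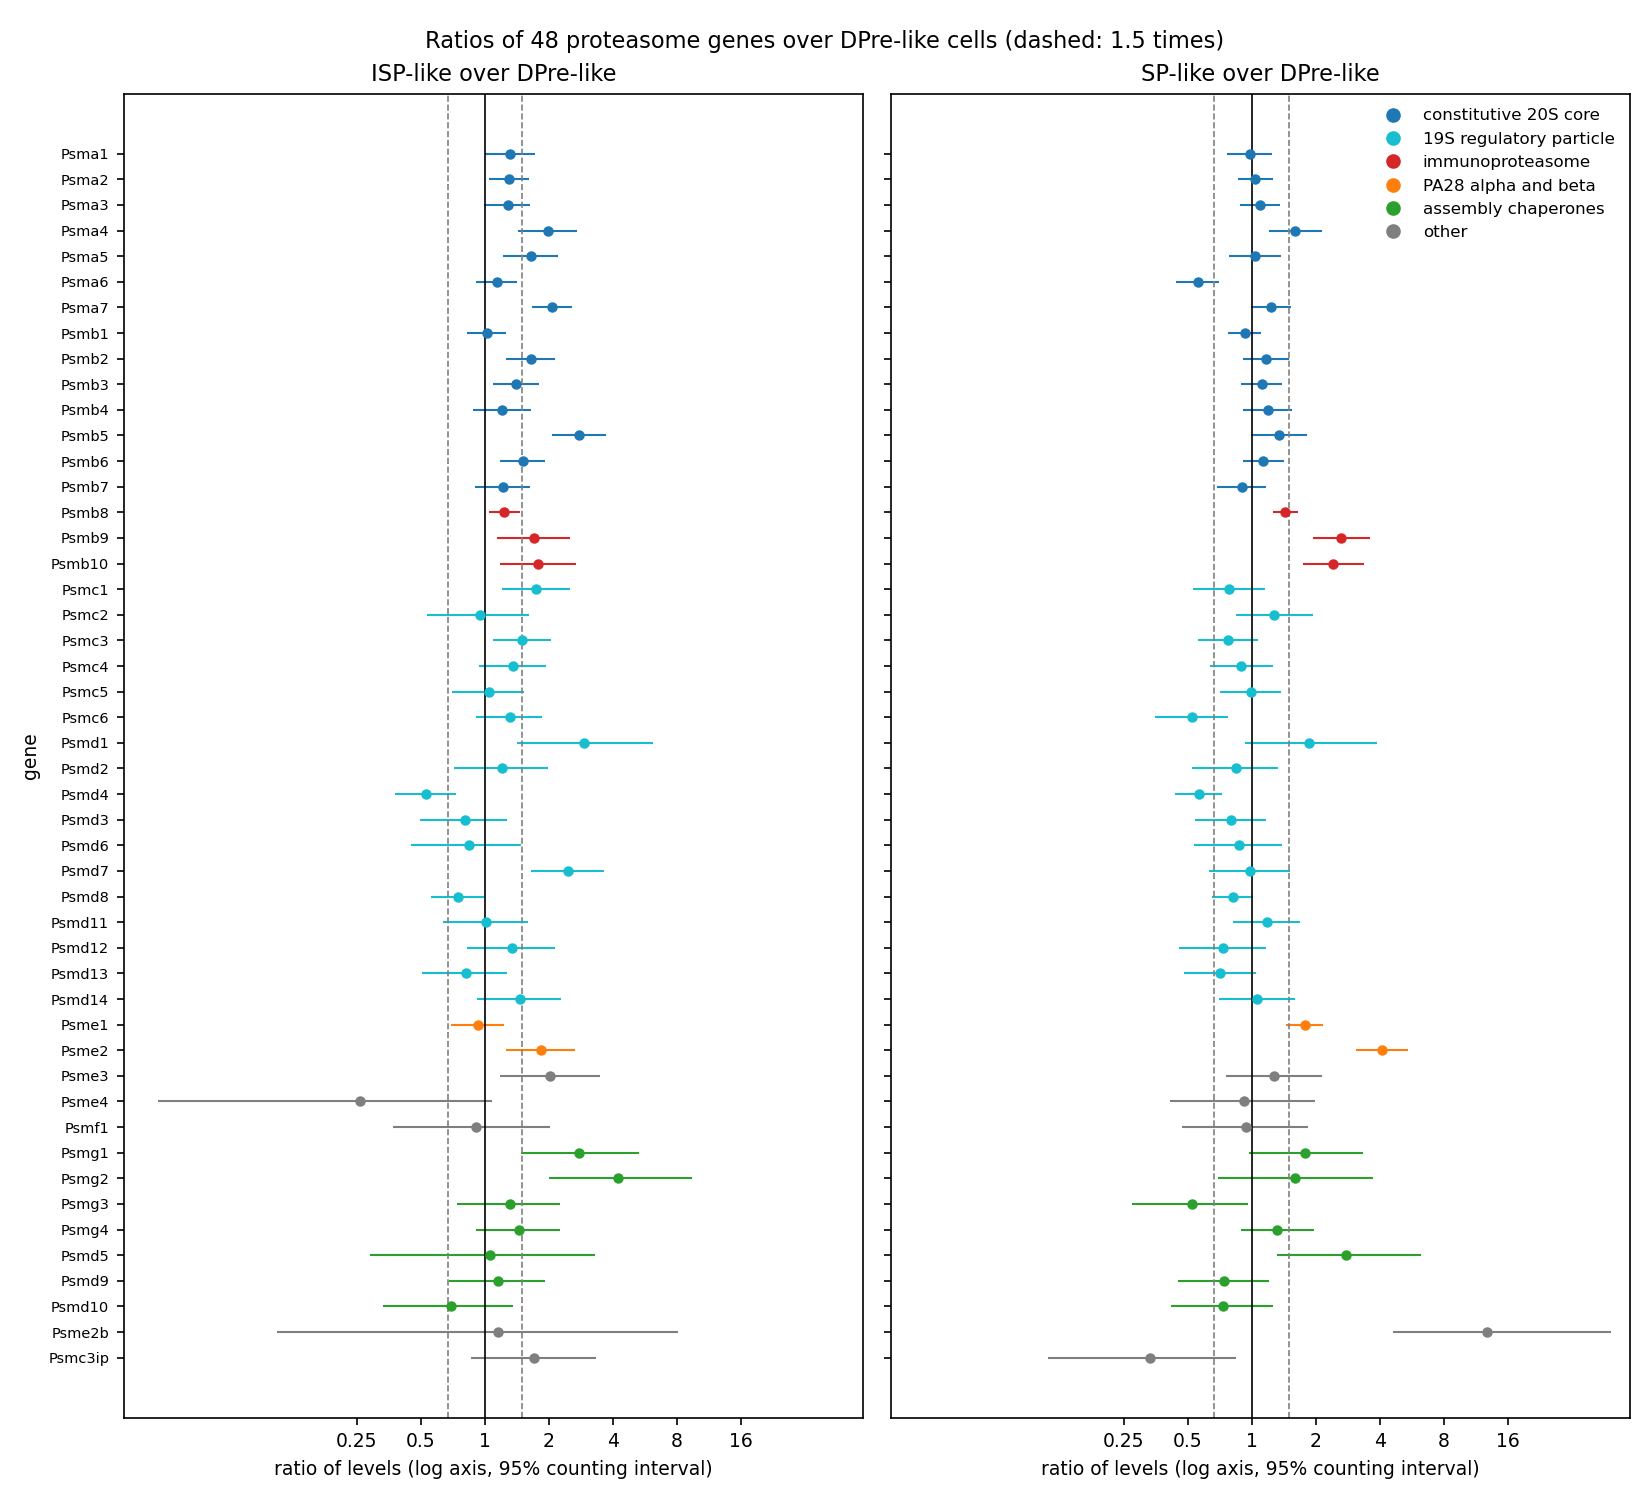
Ratio of the level of each of 48 proteasome genes (y axis) in ISP-like (left) and SP-like cells (right) over DPre-like cells, on a log x axis, with exact conditional 95% intervals that cover counting error only and dashed lines at 1.5 times up and down. All core points of the left panel lie above 1, while in the right panel Psme2b (12.7) and Psme2 (4.09) lie furthest right.

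All 14 core genes had a ratio above 1 in ISP-like over DPre-like cells, with a range of 1.02 to 2.76 and 6 called higher. Of all 5429 genes tested, 2307 had a ratio above 1 and 23.2% were called higher. The ratio was highest for Psmb5, the constitutive chymotrypsin-like subunit. Its level was 2.17 in DN-like cells, 4.96 in ISP-like cells, 3.54 in DPbla-like cells, 1.80 in DPre-like cells, 3.04 in DPsel-like cells, 2.09 in CD4sp-like cells, 2.76 in CD8sp-like cells, 3.08 in NCL-like and 2.42 in APC-like cells. Its ratios over the DPre-like cells were 2.76 (2.06 to 3.71) in ISP-like cells, 1.97 (1.51 to 2.59) in DPbla-like and 1.70 (1.29 to 2.25) in DPsel-like cells. Psmb5 was thus lowest in the DPre-like cells and highest in the ISP-like cells, whose intervals do not overlap.

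Among the alpha subunits, Psma2 and Psma7 had the highest levels over all cells, 5.28 and 4.92. Psma7 was 7.74 in ISP-like and 3.75 in DPre-like cells, a ratio of 2.06 (1.66 to 2.56), whereas Psma2 was 6.51 and 5.02. Among the beta subunits without a protease site, Psmb1, the most abundant at 6.04 over all cells, was 6.23 in ISP-like and 6.12 in DPre-like cells, and Psmb3 was 5.00 and 3.57. Psmb6, the caspase-like catalytic subunit, was 5.99 in the DPbla-like cells against 3.53 among DPre-like cells, a ratio of 1.70 (1.40 to 2.07). Psmb7, the trypsin-like subunit, was 3.99 and 2.84 in the same stages, a difference below the fold.

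In SP-like over DPre-like cells, 1 of the 14 core genes was called higher and 1 lower, where 17.6% and 21.4% of all genes were. Both are alpha subunits, named here after their values were seen. Psma4 was 2.88 in SP-like and 1.80 in DPre-like cells (1.61, 1.20 to 2.15). Psma6 was 2.78 in SP-like and 4.98 in DPre-like cells (0.56, 0.44 to 0.70), and ranged up to 6.87 in the unnamed cluster 8. The median ratio of the core was 1.10, against 0.95 over all genes tested.

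The immunoproteasome genes differed from the core and also among themselves. Psmb8, which replaces Psmb5, was the most abundant of all 49 genes, at 9.92 over all cells. Its level was 12.2 in DN-like cells, 10.7 in ISP-like cells, 9.37 in DPbla-like cells, 8.67 in DPre-like cells, 8.29 in DPsel-like cells, 12.7 in CD4sp-like cells, 12.3 in CD8sp-like cells, 9.23 in NCL-like and 11.2 in APC-like cells. The SP-like over DPre-like ratio of 1.44 (1.26 to 1.64) stayed below the fold. Psmb8 was thus high in every stage and highest at both ends of thymocyte development.

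Psmb9, which replaces Psmb6, showed a pattern of its own. Its level was 2.66 in DN-like cells, 2.22 in ISP-like cells, 3.27 in DPbla-like cells, 1.31 in DPre-like cells, 1.67 in DPsel-like cells, 3.62 in CD4sp-like cells, 3.24 in CD8sp-like cells, 3.33 in NCL-like and 7.03 (4.81 to 9.93) in APC-like cells. The ratio over DPre-like cells was 1.70 (1.14 to 2.51) in ISP-like, 2.51 (1.86 to 3.42) in DPbla-like and 2.63 (1.93 to 3.60) in SP-like cells. Over the settings tried, the ISP-like ratio ran from 1.45 to 2.51 and the DPbla-like ratio from 2.10 to 2.53. All 3 DPbla-like clusters were above both DPre-like clusters, with 2.56 to 3.77 against 1.01 and 1.57.

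Psmb10, which replaces Psmb7, was not higher in the DPbla-like cells. Its level was 2.47 in DN-like cells, 2.08 in ISP-like cells, 0.92 in DPbla-like cells, 1.16 in DPre-like cells, 1.81 in DPsel-like cells, 2.70 in CD4sp-like cells, 2.92 in CD8sp-like cells, 2.31 in NCL-like and 2.64 in APC-like cells. The ratio over DPre-like cells was 0.79 (0.52 to 1.20) in DPbla-like cells, 1.79 (1.18 to 2.69) in ISP-like and 2.41 (1.74 to 3.39) in SP-like cells. In the DPbla-like cells, the ratio intervals of Psmb9 and Psmb10 do not overlap.

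**Figure D3:**
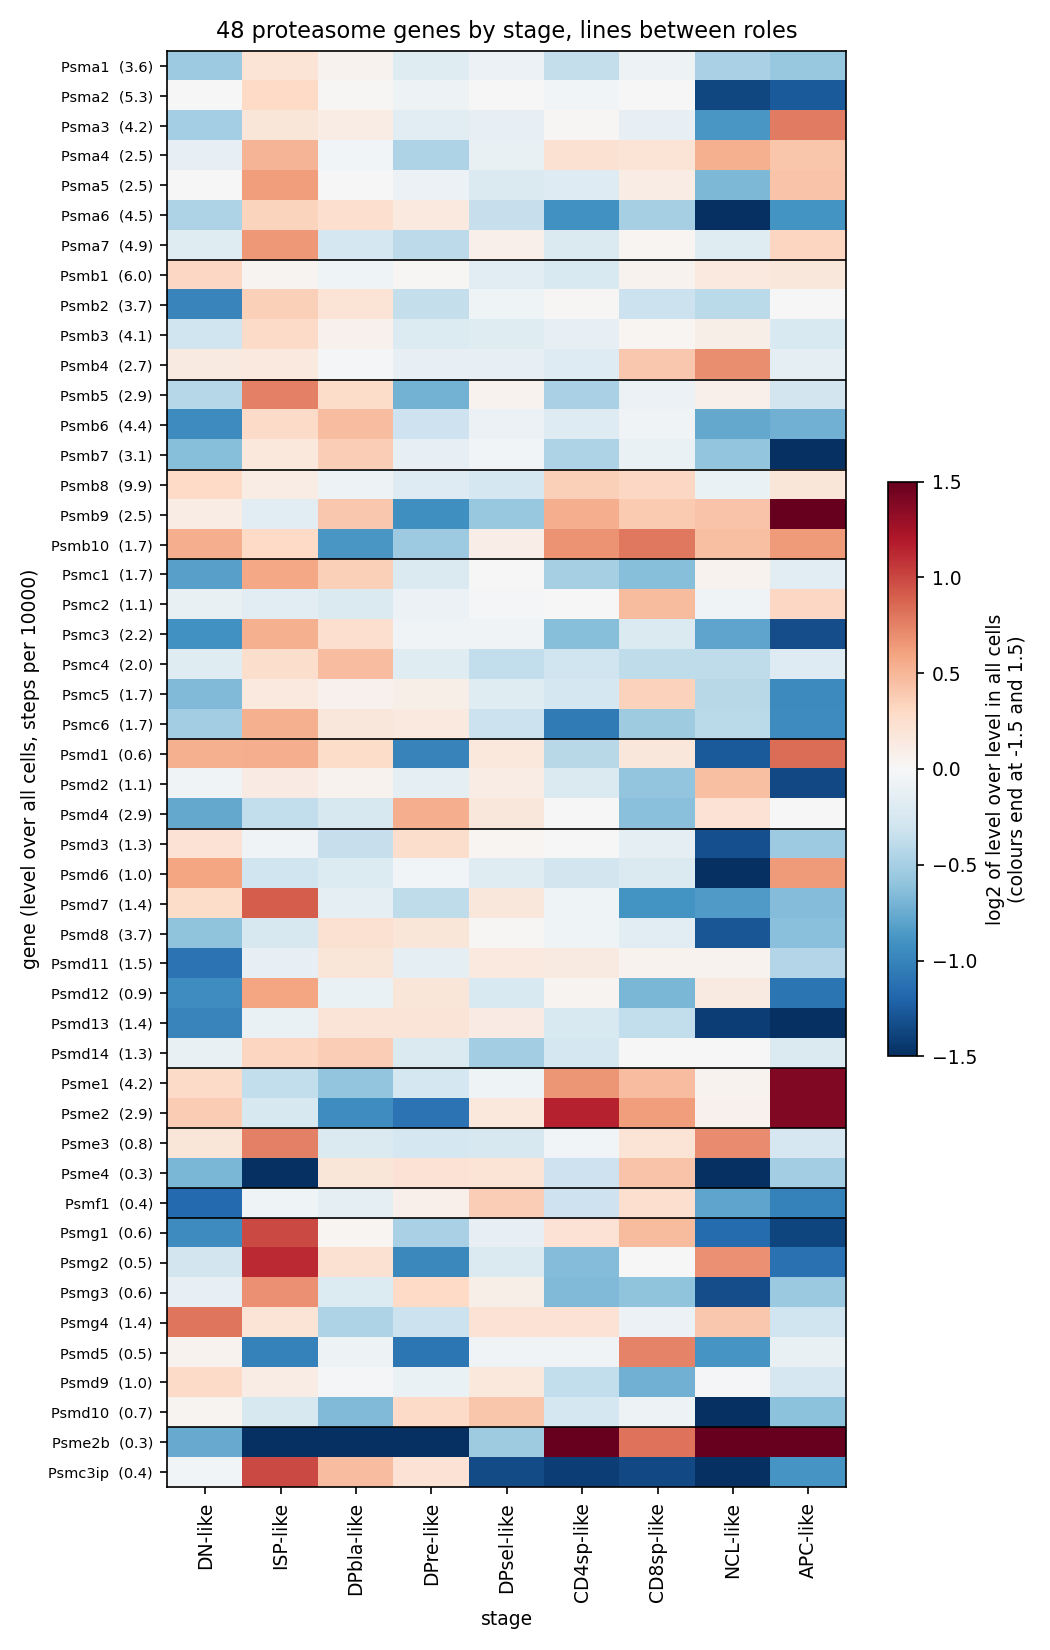
Heat map of 48 proteasome genes (rows, with the level over all cells in steps per 10000 in parentheses) in 9 groups of cells (columns), coloured by the log2 of the level over that in all cells, with colours ending at 1.5 in either direction and lines between roles. Psmb9 and Psmb10 take opposite colours in the DPbla-like column, and most core genes are red in the ISP-like column.

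The inducible and constitutive forms of each catalytic site were next compared within a stage, which does not depend on the total of steps. Psmb8 made up 84.9% (78.1 to 90.3) of Psmb8 and Psmb5 steps in DN-like cells, 68.4% (63.1 to 73.3) in ISP-like cells, 72.6% in DPbla-like cells, 82.8% (79.3 to 86.0) in DPre-like cells, 73.1% in DPsel-like cells, 85.9% in CD4sp-like cells, 81.6% in CD8sp-like cells, 75.0% in NCL-like and 82.3% in APC-like cells. Psmb9 made up 54.0%, 29.4%, 35.4%, 27.0% (21.5 to 33.1), 29.0%, 48.6% (40.3 to 57.0), 43.6%, 56.5% and 72.7% of Psmb9 and Psmb6 steps in the same order. Psmb10 made up 55.6%, 37.6%, 18.7% (13.8 to 24.5), 29.1%, 37.6%, 54.6% (44.2 to 64.8), 50.5%, 52.9% and 75.0% of Psmb10 and Psmb7 steps. The lowest share was in ISP-like cells for the chymotrypsin-like pair, in DPre-like cells for the caspase-like pair and in DPbla-like cells for the trypsin-like pair. None of these minima was resolved from the next stage, since each interval overlaps that of at least 1 other stage.

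Over all 6 catalytic genes the inducible share was 73.0% (67.0 to 78.5) in DN-like cells, 52.2% in ISP-like cells, 50.1% (47.2 to 52.9) in DPbla-like cells, 57.7% (54.5 to 60.9) in DPre-like cells, 53.7% in DPsel-like cells, 70.0% (65.9 to 73.8) in CD4sp-like cells, 65.2% in CD8sp-like cells, 65.9% in NCL-like and 77.9% in APC-like cells. The intervals of the DN-like, CD4sp-like and CD8sp-like cells thus lie above those of the ISP-like and all DP stages. These are shares of steps of RNA. No protein or assembled complex was measured, and steps understate Psmb8, the gene with the highest level.

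**Figure D4:**
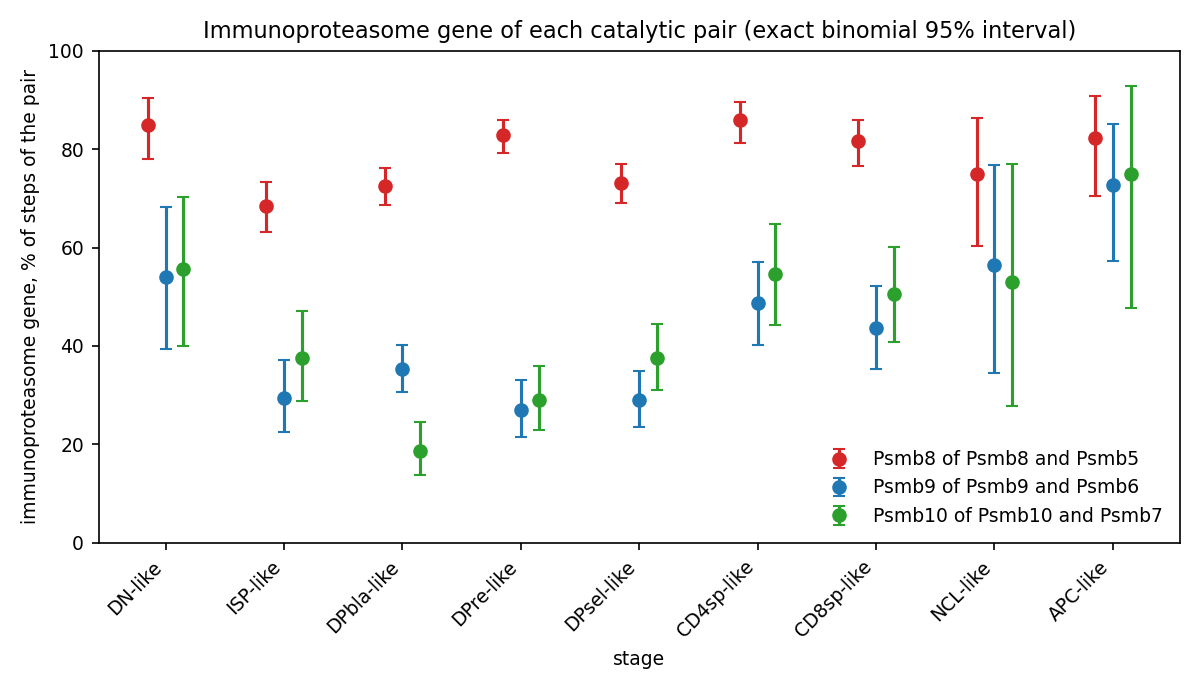
Share of the immunoproteasome gene in the steps of each catalytic pair (y axis, %) in 9 groups of cells (x axis), with exact binomial 95% intervals that cover counting error only. Psmb8 is at 68.4% or more in every group, while Psmb10 falls to 18.7% in DPbla-like cells.

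PA28, the activator ring, changed most between the DP and SP-like stages. Psme1, its alpha subunit, was 5.13 in DN-like cells, 3.26 in ISP-like cells, 2.80 in DPbla-like cells, 3.51 in DPre-like cells, 4.03 in DPsel-like cells, 6.67 in CD4sp-like cells, 5.78 in CD8sp-like cells, 4.36 in NCL-like and 11.0 in APC-like cells. Psme2, its beta subunit, was 3.85, 2.50, 1.55, 1.37, 3.30, 6.57, 4.56, 3.08 and 7.69 in the same order. Both were lowest in DPbla-like or DPre-like cells and highest in APC-like cells, and Psme2 differed by the larger fold between its lowest and highest stage.

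The ratio of Psme2 over DPre-like cells was already 2.41 (1.79 to 3.27) in DPsel-like and reached 4.09 (3.09 to 5.46) in SP-like cells, against 1.15 (0.93 to 1.42) and 1.78 (1.46 to 2.17) for Psme1. In the DPsel-like cells, cluster 3 had 4.59 of Psme2 and cluster 4 had 1.96. Between the SP-like classes, Psme2 was lower in CD8sp-like than in CD4sp-like cells, at 0.69 (0.52 to 0.92), and PA28 as a whole was 0.78 (0.65 to 0.94). The symbol Psme2b, an annotated copy of Psme2 on chromosome 11, was at 0.08 in DPre-like cells on 4 steps and 1.04 in SP-like cells on 40 steps, a ratio of 12.7 (4.6 to 49.0). Reads of the copy and of Psme2 are nearly alike, so how they were divided is uncertain. Its level over all cells of 0.33 passed the filter mainly through the SP-like cells, and it is 1 of the members counted as higher in the DPsel-like and SP-like contrasts and as lower in CD8sp-like over CD4sp-like cells.

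APC-like cells had the highest PA28 and Psmb9, so the levels of markers of other cell types are given beside these results. The summed level of the 6 antigen-presenting cell genes was 7.33 in DPre-like, 7.88 in DPsel-like and 6.11 in SP-like cells, and 10.9 in cluster 13. That of 7 genes of nonconventional lymphocytes was 0.63 in DPre-like, 5.59 in DPsel-like and 7.95 in SP-like cells, with 3.82 in the CD4sp-like and 12.3 in the CD8sp-like class, against 94.1 in NCL-like cells. Summed over 4 B cell genes, the level was 33.0 on 150 steps in APC-like, 0.69 in DPre-like and 0.34 in SP-like cells, so the APC-like group carried B cell genes as well. The 2 erythroid genes in the table, of 5 listed, summed to 0.14 on 7 steps in DPre-like, 0.98 on 43 steps in DPsel-like and 0.18 in SP-like cells. Their part in the immunoproteasome and PA28 ratios was not tested. Over the settings tried, the PA28 ratio in SP-like over DPre-like cells ran from 2.40 to 2.86.

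The remaining activators and the inhibitor had low levels. Psme3, which encodes the nuclear PA28 gamma ring, was 1.32 in ISP-like and 0.65 in DPre-like cells (2.02, 1.17 to 3.47) and 0.83 in SP-like cells (1.27, 0.76 to 2.15). Psme4, the single-chain activator PA200, was between 0.20 and 0.42 in all thymocyte stages but the ISP-like cells, at 0.09. Its low ISP-like ratio of 0.26 (0.03 to 1.07) rests on 2 steps and was 0.99 in another draw. Psmf1, the inhibitor, was 0.42 in ISP-like cells, 0.47 in DPre-like and 0.44 in SP-like cells, with ratios whose intervals include 1.

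Psmb11 was close to absent from these cells. Its level was 0.20 (0.10 to 0.38) in DPre-like cells on 10 steps, 0.24 on 5 steps in ISP-like and 0.56 on 5 steps in cluster 13, and no thinned step was found in CD4sp-like cells, where the interval reaches 0.19. Of 6 thymic epithelial genes, 4 were in the table, with a summed level of 3.06 in DN-like and 1.16 in DPre-like cells and 0.76 to 1.32 in the ISP-like, DPbla-like, DPsel-like, SP-like and APC-like cells. Their part in the Psmb11 values was not tested.

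The 19S regulatory particle was the group whose sum was lower in the SP-like cells. Only 4 of its 17 genes had a ratio above 1 there, with a median of 0.84. Of all 5429 genes tested, 2457 had a ratio above 1, with a median of 0.95. Among the 17, 1 was called higher, Psmd1, where 17.6% of all genes were, and 2 lower, Psmd4 and Psmc6, where 21.4% were. Psmc6 is named after its value was seen. Psmd4, a ubiquitin receptor of the cap, was 1.68 in DN-like cells, 2.22 in ISP-like cells, 2.42 in DPbla-like cells, 4.18 in DPre-like cells, 3.23 in DPsel-like cells, 2.85 in CD4sp-like cells, 1.86 in CD8sp-like cells, 3.33 in NCL-like and 2.86 in APC-like cells. Psmd4 was highest in the DPre-like cells, with ratios of 0.53 (0.38 to 0.73) in ISP-like cells, 0.58 (0.45 to 0.74) in DPbla-like and 0.57 (0.44 to 0.73) in SP-like cells over them, and was thus turned against the core in the ISP-like cells.

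Among the ATPases of the base, Psmc3 was 3.21 in ISP-like cells, 2.14 in DPre-like and 1.66 in SP-like cells, and Psmc4 was 2.41, 1.78 and 1.59. Psmc6 was 1.88 in DPre-like and 0.99 in SP-like cells (0.53, 0.35 to 0.78). Of the base scaffolds, Psmd2 was 1.02 in DPre-like and 0.86 in SP-like cells, and Psmd1 was 0.31 and 0.57. The Psmd1 ratio of 1.87 (0.93 to 3.87) rests on 15 and 22 steps and was 0.94 in another draw. In the lid, Psmd8 was 4.24 in DPre-like cells, 3.16 in ISP-like and 3.46 in SP-like cells, Psmd11 was 1.35, 1.37 and 1.59, and Psmd7, the partner of the deubiquitinase Psmd14, was 1.06 in DPre-like and 2.60 in ISP-like cells (2.45, 1.64 to 3.65).

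Of the assembly chaperones, 2 of 7 were higher in ISP-like over DPre-like cells, where 23.2% of all genes were. Both are factors that guide the alpha ring. Psmg1 was 1.13 in ISP-like and 0.41 in DPre-like cells (2.78, 1.47 to 5.30), and Psmg2 was 1.04 and 0.24 (4.24, 2.01 to 9.40). In another draw the Psmg2 ratio was 2.57. Psmg4, the most abundant chaperone gene, was highest in DN-like cells at 2.37 and was 1.08 in DPre-like cells. The chaperones of the 19S base gave a mixed picture: Psmd9 was 0.98 in DPre-like and 0.73 in SP-like cells, Psmd5 was 0.22 and 0.62 (2.78, 1.31 to 6.28), and Psmd10 was 0.82 in DPre-like and 0.43 in DPbla-like cells (0.52, 0.29 to 0.92). Psmc3ip, a recombination factor gene that carries a proteasome-like symbol, was 0.47 in DPre-like cells, 0.16 in DPsel-like and 0.16 in SP-like cells.

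Between CD8sp-like and CD4sp-like cells the group ratios were 1.13 (1.03 to 1.24) for the core, 0.98 (0.86 to 1.12) for the 19S regulatory particle and 0.97 (0.83 to 1.12) for the immunoproteasome, beside the 0.78 of PA28. The intervals for the 19S regulatory particle and the immunoproteasome include 1, and they do not show that the classes are alike. Without thinning the ratio of the 19S regulatory particle was 1.15. Of the 6 members furthest apart in this contrast, Psmd5, Psme4 and Psmg2 were above 1 at 1.74, 1.67 and 1.56 and Psme2b, Psmd7 and Psmd12 below 1 at 0.40, 0.56 and 0.60. Psmb4, a beta subunit of the core named after its value was seen, was also called higher, at 1.52 (1.03 to 2.26). The intervals of Psmd5, Psme4, Psmg2, Psmd7 and Psmd12 include 1, and the direction of these 5 turned in at least 1 other setting. Psme2b carries the uncertainty of its reads.

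The members' levels were compared across the 17 clusters as a description. All clusters come from 1 library and share its reads, and sparse counts blur genes with low levels. The correlation of each gene with the mean of the other core and 19S genes, each scaled to its own mean, had a median of 0.63 for the core and 0.46 for the 19S regulatory particle, and of -0.31 for the immunoproteasome and -0.53 for PA28. With the mean of the other immunoproteasome and PA28 genes, the medians were 0.69 for the immunoproteasome, 0.92 for PA28, -0.24 for the core and -0.36 for the 19S regulatory particle. Psmc3 (0.91) was most like the constitutive set, and Psme1 and Psme2 (0.92 each) were most like the inducible set. Among the core and 19S genes, Psmd4 (-0.25) and Psmc2 (-0.41) were least like the constitutive set, the latter named after its value was seen.

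Genes that work with the proteasome were summarised from 2 lists. In SP-like over DPre-like cells, none of 22 tested partner genes (such as ubiquitin, ubiquitin-activating enzymes and shuttle factors) was higher and 6 were lower, with a median ratio of 0.82, where 17.6% and 21.4% of all genes were and the median was 0.95. The partner genes furthest from 1 were Uba6, a ubiquitin-activating enzyme (0.47, 0.23 to 0.92), Ubqln2, a shuttle factor (0.60, 0.22 to 1.47), and AI314180, the proteasome adaptor also known as Ecpas (0.60, 0.24 to 1.40). Of 15 tested genes of MHC class I presentation, 11 were higher and 3 lower, with a median ratio of 1.77. Some of these genes were named by the study from the same cells, so this count is not independent evidence of direction.

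The MHC class I genes furthest from 1 were H2-K1 (14.3, 10.7 to 19.5) and H2-D1 (8.19, 6.70 to 10.1), which encode the class I heavy chains, and Irf1, an interferon regulatory factor (4.80, 2.56 to 9.65). The peptide transporter genes were turned against each other, with Tap1 at 4.36 (2.58 to 7.69) and Tap2 at 0.36 (0.26 to 0.50), both named after their values were seen. In ISP-like over DPre-like cells, 2 of the 15 class I genes were higher and 7 lower, with a median of 0.93, and 5 of 22 partner genes were higher and 3 lower, with a median of 0.89. Of all genes 23.2% were higher and 35.2% lower there, with a median of 0.88.

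Some of these genes are neighbours in the genome. On GRCm38 (GENCODE vM21), Psmb8 spans chr17:34197721-34201454 on the plus strand and Psmb9 chr17:34181987-34187764 on the minus strand, with Tap1 between them. Psmb9 and Tap1 overlap head to head, Tap1 ends 496 bases before Psmb8, and how strand was used in counting is not given in the sources used here. Psme1 (chr14:55578123-55581529, plus strand) and Psme2 (chr14:55587441-55591113, minus strand) face each other with 5912 bases between them. Psmb5 (chr14:54614119-54618022, minus strand) and Psmb11 (chr14:54621433-54629556, plus strand) have 3411 bases between their spans, and Psmb10 lies alone at chr8:105935735-105938444 on the minus strand.

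Open chromatin at the starts of these genes was next compared between the sorted cells. For each gene the count in the peak with its centre nearest to the start, within 2000 bases, was divided by the total in peaks. All peaks are windows of 4000 bases. Of the 49 members, 48 had such a peak. The sorted cells had median totals of 3377.5 (DN), 3866 (DP), 2571 (CD4) and 3935.5 (CD8) counts.

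The signal of PA28 was lower in the DP sort, with 18 counts in 2 peaks, than in the others. The ratios of the core and the 19S regulatory particle had intervals that include 1. In SP sorted (CD4 and CD8 together) over DP sorted cells, the ratio was 0.96 (0.81 to 1.15) for the core, 0.94 (0.79 to 1.11) for the 19S regulatory particle, 1.27 (0.81 to 2.02) for the immunoproteasome, 1.84 (1.09 to 3.28) for PA28 and 0.72 (0.55 to 0.95) for the assembly chaperones. In DN sorted over DP sorted cells, it was 0.98 (0.83 to 1.17), 0.95 (0.80 to 1.13), 1.45 (0.94 to 2.29), 2.16 (1.29 to 3.80) and 0.90 (0.69 to 1.16) in the same order. The immunoproteasome intervals include 1 in both comparisons. Both comparisons share the DP sorted cells.

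The number ranges in the labels of the cells may mark separate runs, which the labels do not state. The sorts were spread unevenly over them. The range from 4000 held 160 SP, 32 DN and 64 DP sorted cells, and that from 31000 held 75, 86 and 29. Some DN and DP sorted cells lie in neither range and entered only the ratios over all sorted cells, in which sort and range cannot be told apart in full. Among cells numbered in the range from 4000 the immunoproteasome ratio was 1.29 for SP and 1.79 for DN over DP, and among those numbered from 31000 it was 1.10 and 0.81, so the direction of the DN comparison turned. For PA28 the ratios in the range from 4000 were 2.03 and 1.54, and the latter interval (0.61 to 3.97) includes 1. The chaperone ratios turned to 1.64 and 1.71 among cells numbered from 31000, and the 19S ratio in DN over DP was 0.68 in the range from 4000. In the cells numbered from 31000, of which 29 were DP sorted, no count fell in the PA28 peaks of the DP sort and no ratio was formed.

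**Figure D5:**
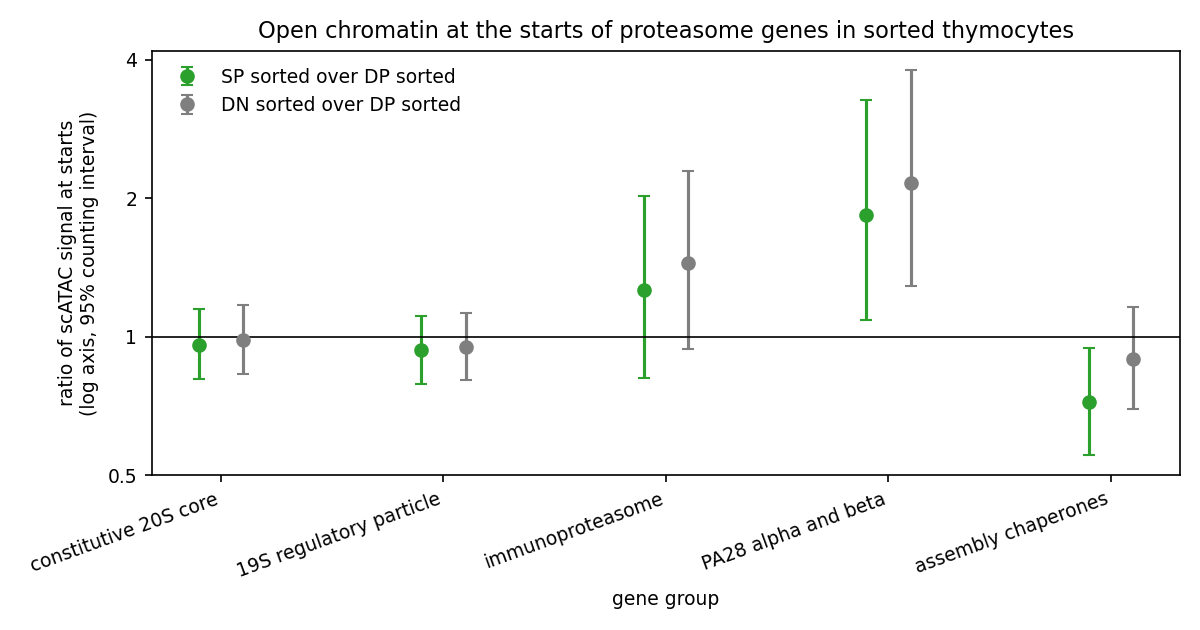
Ratio of the scATAC-seq signal at gene starts (log y axis) in SP sorted and DN sorted over DP sorted cells for 5 proteasome gene groups (x axis), with exact conditional 95% intervals that cover counting error only. PA28 lies highest, at 1.84 and 2.16, and the core and 19S points lie close to 1.

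Single genes rest on few counts. Psme1 had 40 counts in DN (0.36 per 10000), 7 in DP (0.15), 15 in CD4 (0.27) and 12 in CD8 (0.24), and Psme2 had 50 (0.45), 11 (0.23), 20 (0.36) and 26 (0.53). Both genes were lowest in the DP sort. Psmb9, whose peak is shared with Tap1, had 61 (0.55), 15 (0.31), 25 (0.45) and 17 (0.34), Psmb8 had 25 (0.23), 9 (0.19), 11 (0.20) and 9 (0.18), and Psmb10 had 8, 4, 8 and 8 counts. For Psmb8 no difference between the 4 sorts was detectable at this depth, and Psmb10 was too sparse to compare.

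Among genes with at least 30 counts in both sorts together, a filter chosen after the data were seen, 4 of 31 members were higher and 5 lower in SP over DP sorted cells, where 14% and 15.3% of all genes were. Higher were Psme2 (1.90), Psme1 (1.75), Psmc3 (1.82) and Psma7 (2.08), and lower were Psmd1, Psmd5, Psmf1, Psmc3ip and Psmg4, at 0.48 to 0.65. All of these intervals include 1. In DN over DP sorted cells 4 of 30 were higher and 1 lower, where 14.7% and 15.2% of all genes were. Higher there were Psme1 (2.46), Psme2 (1.96), Psmb9 (1.75) and Psma7 (1.73), and Psmg4 (0.66) was lower, and the intervals of Psme1 (1.09 to 6.52) and Psme2 (1.01 to 4.18) exclude 1. The Psma7 peak is shared with Ss18l1. Both comparisons share the DP sort, in which Psme1, Psme2 and Psma7 had 7, 11 and 7 counts, and the counts of members called higher are at the background.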

How the data were processed

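Members and gene lists were chosen with earlier results of these data known. For the scRNA-seq library the authors ran Cell Ranger 1.3.1 with GRCm38.p5, filtered cells and genes, and deposited log2 values after quantile normalization, with zeros kept at 0. Values were turned into steps, and each of the 1993 cells, which had at least 1356 and a median of 2558 steps, was thinned to 1300 steps. Clustering used Seurat 5.3.0 in R 4.3.3 with 1298 variable genes (mean 0.025 to 3, dispersion 0.5), 20 principal components, 30 neighbors and a resolution of 2. A cluster took the marker class with the highest mean z score if it led by 0.3, a margin set after the scores were seen. Doublets were not called.

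For scATAC-seq, adapters had been trimmed (ATAC-pipe), reads mapped (Bowtie2) and duplicates dropped (Picard), and the authors deposited counts per cell in peaks that MACS2 found on all cells merged. The submitters' processing notes name GRCm38.p5 and hg38 without an assay, so the build of the peak table is not given in the sources used here. Of its peak centres 26.0% lay within 2000 bases of a GENCODE vM21 start, and 7.71% after a shift of 100000 bases. Of the cells, 542 sorted ones were used. Per-cell columns of 1446 other cells, unsorted or with no group in the labels, were not used.

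Ratios used scipy 1.17.1, numpy 2.4.6, pandas 2.3.3 and matplotlib 3.10.9, in Python 3.11.15. The calculation of steps and ratios was tested on simulated data drawn without added spread between cells, which does not test steps as molecule counts in real cells. Genes were named by role: all immunoproteasome, thymoproteasome, activator and inhibitor genes, the 2 with the highest level in each other role, up to 6 members past the fold furthest from 1 per contrast, and 3 genes per pathway list.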

Additional observations from a re-analysis of the deposited data

How the results depend on the processing

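No paired analysis was possible because the scRNA-seq data are 1 library and no animal is named for any cell. With 1 library, no replicate could be left out. Resolution 1 gave no SP-like class and so no SP-like or CD8sp-like value. Naming every cluster was chosen after the data were seen. Depth limits genes with few steps, where 1 random draw can turn a ratio, and not only those near 0.3 steps per 10000. Psmd1 and Psmd12, which turned in another draw, were at 0.61 and 0.94 over all cells. The 19S ratio in CD8sp-like over CD4sp-like cells moved from 0.98 to 1.15 in that draw.

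Of 68 alternative ratios of the core, 19S regulatory particle, immunoproteasome and PA28 in ISP-like and SP-like over DPre-like cells, 64 stayed within the main interval. The immunoproteasome stayed at 1.52 to 1.71 and the 19S regulatory particle at 0.80 to 0.84 in SP-like over DPre-like cells. The others were PA28 in SP-like over DPre-like cells without thinning (2.86), PA28 in ISP-like over DPre-like cells in another draw (1.66), and the core with every cluster named, at 1.29 in ISP-like and 0.97 in SP-like over DPre-like cells. The cause was not tested. The promoter signal of the immunoproteasome in DN over DP sorted cells was 0.81 among cells numbered from 31000, where 29 DP cells remained.

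At a fold of 2, which calls fewer genes by its construction, higher and lower members were 7 and 1 in ISP-like (14.3% and 22.2% of all genes), 3 and 0 in DPbla-like (9.85% and 15.3%), 4 higher in DPsel-like (6.61% and 6.80%), 5 and 1 in SP-like (9.15% and 10.2%) over DPre-like cells, and 0 and 1 in CD8sp-like over CD4sp-like cells (7.85% and 5.99%). Members lower were also 2 in DPsel-like cells with no filter and 3 with every cluster named, and without thinning 1 in ISP-like and 3 in SP-like cells. In CD8sp-like over CD4sp-like cells, members higher were 3 with members kept in clustering and 2 with 30 principal components, and members lower were 2 with 30 components, 1 without thinning and 2 in another draw. Direction turned in that contrast for Psmd5 (0.95), Psme4 (0.91) and Psmg2 (0.91) with 30 components, Psmd7 (1.16) and Psmg2 (0.95) without thinning and Psmd12 (1.19) in another draw, and for Psmd1 in SP-like over DPre-like cells in another draw (0.94). Of 680 alternative ratios of single genes and the remaining groups, 667 neither turned the direction of a called gene nor left the main interval. Of the other 13, these 7 turned the direction of a called gene and 6 left the interval, 3 of them also crossing 1: the 19S regulatory particle in CD8sp-like over CD4sp-like cells, at 1.15 both without thinning and in another draw, and the core in DPsel-like over DPre-like cells with every cluster named, at 0.98.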
